A study of Mus musculus with 20 samples.

Results

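The regions described here carried trimethylated lysine 4 of histone H3 (H3K4me3) in excitatory and in inhibitory neuronal nuclei of the mouse brain, but the Polycomb mark H3K27me3 in the inhibitory nuclei alone. Overlapping H3K4me3 peaks of 4 libraries on chromosomes 1 to 19 and X were merged into 345930 union regions, and 20979 of these held a peak in all 4 libraries. Of those shared regions, 1009 (4.81%) overlapped an H3K27me3 peak by at least 1 base in both inhibitory libraries and in neither excitatory library. A further 535 shared regions had the opposite pattern, 2850 had H3K27me3 in all 4 libraries, 12251 had it in none, and 4334 had another pattern. The 1009 regions were chosen by their H3K4me3 and H3K27me3 peaks, so both marks are described without a test. H3K4me1, H3K27ac and the transcription factor EGR1 took no part in the choice and were tested between the types.

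Nuclei of whole brain from mice aged 8 weeks were sorted by fluorescence into excitatory and inhibitory neurons and profiled by CUT&RUN, in which an antibody tethers a nuclease that cuts the chromatin around its target. All mice carried the genotype Sun1 f/f | Emx1Cre (+), in which a floxed Sun1 allele (commonly a nuclear-envelope tag) is recombined by Cre expressed from Emx1, a gene of the dorsal forebrain. Each of 5 antibodies was used on 2 libraries of each type, 20 libraries in all. The labels do not say that the libraries came from separate animals, so p-values measure the spread between libraries, which may be technical. The sources used here do not say how the gate set inhibitory nuclei apart on this allele.

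Polycomb repressive complex 2 writes H3K27me3, which is found at silent developmental genes and at the CpG-rich starts of genes held at a low level. H3K4me3 is written by the COMPASS family of methyltransferases at gene starts and accompanies active or poised promoters. A start that carries both marks is called bivalent, a state described first at lineage genes of stem cells and also found in neurons. Peaks from a population of nuclei do not show whether both marks lie on the same chromosome copy or in different cells. H3K27ac marks active promoters and enhancers, H3K4me1 their flanks and primed enhancers, and EGR1 is a zinc-finger factor induced by neuronal activity.

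The sequences just upstream of 6 gene starts show the range of base composition at these regions. They are among the leading genes for H3K27me3 (Pdgfa), H3K4me1 (Basp1), H3K27ac (Crtap, which ranked after Scn3a, and Dyrk2) and EGR1 (Scd4 and Ccdc30), with values given further on. Each is the 250 bases before the start site from RefSeq on GRCm38.p6 (mm10), 5′ to 3′ on the gene's strand, with CpG dinucleotides in capitals.
Pdgfa, chr5:138994282-138994531, minus strand: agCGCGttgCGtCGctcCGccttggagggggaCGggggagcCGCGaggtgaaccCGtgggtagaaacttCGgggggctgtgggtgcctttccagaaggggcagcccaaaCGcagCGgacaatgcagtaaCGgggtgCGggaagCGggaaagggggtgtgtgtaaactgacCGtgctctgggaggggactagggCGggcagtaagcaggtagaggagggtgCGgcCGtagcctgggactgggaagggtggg
Basp1, chr15:25413765-25414014, minus strand: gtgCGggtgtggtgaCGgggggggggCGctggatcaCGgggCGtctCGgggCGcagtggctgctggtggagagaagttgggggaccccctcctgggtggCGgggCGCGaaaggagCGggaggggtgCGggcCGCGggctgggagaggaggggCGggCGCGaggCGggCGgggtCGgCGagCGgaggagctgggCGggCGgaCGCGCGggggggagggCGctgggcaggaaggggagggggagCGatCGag
Crtap, chr9:114390713-114390962, minus strand: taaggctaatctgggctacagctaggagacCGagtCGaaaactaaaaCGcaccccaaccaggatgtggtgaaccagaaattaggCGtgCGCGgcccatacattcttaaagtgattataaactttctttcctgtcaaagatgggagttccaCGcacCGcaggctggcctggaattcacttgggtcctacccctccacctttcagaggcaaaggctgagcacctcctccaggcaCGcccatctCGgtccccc
Dyrk2, chr10:118868904-118869153, minus strand: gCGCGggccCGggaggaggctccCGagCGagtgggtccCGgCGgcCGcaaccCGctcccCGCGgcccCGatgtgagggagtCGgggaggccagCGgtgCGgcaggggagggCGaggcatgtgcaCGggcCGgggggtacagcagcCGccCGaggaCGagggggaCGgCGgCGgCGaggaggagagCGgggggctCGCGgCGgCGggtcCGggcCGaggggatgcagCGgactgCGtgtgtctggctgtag
Scd4, chr19:44333076-44333325, plus strand: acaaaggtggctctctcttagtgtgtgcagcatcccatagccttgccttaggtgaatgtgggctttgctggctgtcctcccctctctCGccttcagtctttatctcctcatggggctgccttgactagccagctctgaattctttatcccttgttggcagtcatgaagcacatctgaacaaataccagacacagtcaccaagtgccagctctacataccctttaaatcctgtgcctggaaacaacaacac
Ccdc30, chr4:119359895-119360144, minus strand: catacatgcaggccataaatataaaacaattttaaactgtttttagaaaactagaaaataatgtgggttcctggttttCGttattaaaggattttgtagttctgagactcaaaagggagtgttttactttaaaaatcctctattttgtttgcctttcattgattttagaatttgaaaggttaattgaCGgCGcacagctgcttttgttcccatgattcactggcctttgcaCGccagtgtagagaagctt
The Dyrk2 sequence holds 34 CpG dinucleotides, that of Basp1 30 and that of Pdgfa 19. Crtap has 10, Ccdc30 4 and Scd4 only 1, so the class spans CpG-island and CpG-poor starts. Bases of Pdgfa, Crtap and Scd4 lie inside the H3K4me3 region, the Ccdc30 and Basp1 stretches overlap its edge, and the Dyrk2 stretch lies beside it.

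Over the 428 promoters of the RefSeq table at the 1009 regions (300 bases each, 250 before and 50 after the start), the median GC content was 62.0% and the median number of CpG dinucleotides 19. The ratio of observed to expected CpG was 0.706, against 0.669 at the 1380 promoters with H3K27me3 in both types, 0.809 at the 7181 without it and 0.574 over all 21044 promoters. The consensus of the EGR family, GCGTGGGCG, was searched on both strands and found in 6 promoters (1.40%), against 0.836% of all promoters. The GC box GGGCGG, bound by SP-family factors, was in 291 (68.0%), against 46.7% of all promoters and 67.2% of those without H3K27me3. The E-box CAGCTG, a site of basic helix-loop-helix factors, was in 82 (19.2%), against 15.7%. These letters may overlap one another and describe sequence only.

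About as many of the regions lay away from gene starts as at one. A start site of a protein-coding gene was within 2 kb of 491 regions (48.7%), which served 528 genes. For genes without a tabled start, either gene end was counted as one, so some of these regions may lie at a gene's far end. By the same measure, 61.1% of all shared regions and 63.6% of those with H3K27me3 in both types lay at a start. A further 93 (9.22%) lay at the end of a long non-coding RNA gene, 211 (20.9%) within a gene and 214 (21.2%) elsewhere, the last against 12.5% of all shared regions. The mirror class with H3K27me3 in excitatory nuclei alone had a like share at gene starts, 48.6%. Median length was 1477 bases (quartiles 1141 and 2189), against 1734 for all shared regions. These shares are descriptions of lists of unequal size, and no test was made between the classes.

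H3K27me3 peaks over the regions were weak. The median region had 705 bases under H3K27me3 peaks in the first inhibitory library and 696 in the second, of peaks with median lengths of 1345 and 1217 bases. The authors' fold enrichment had a median of 1.81 and 1.82 and their p-value a median of 0.0284 and 0.0286. None of the 1009 regions met a peak with q below 0.05 in either inhibitory library. Such peaks were rare throughout, with 11, 8, 14 and 12 among the 2850 regions marked in both types. The H3K27me3 lists reach p-values of almost 0.1, and the excitatory lists cover less of the genome (182 and 216 Mb) than the inhibitory ones (277 and 243 Mb). Fewer covered bases in the excitatory lists leave more regions without a peak there, and the part of this in the choice of the 1009 regions was not tested. With the same number of strongest H3K27me3 peaks taken from every library, 875 regions met the rule, 866 of them among the 1009, and 576 had the opposite pattern. With only H3K27me3 peaks of p at or below 0.01 (−log10 p of at least 2), 520 regions met it and 57 of them were among the 1009, so membership of single regions rests on where the p threshold lies.

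The overlap was partial in most regions. The smaller of the 2 inhibitory overlaps had a median of 496 bases, was at least 200 bases in 864 regions and under 100 bases in 57, and 55 regions were covered whole in both libraries. Just inside the rule stood a region of Lmo4, a LIM-only transcription cofactor, with 1 and 817 bases, and Dtl, with 10 and 187 bases. Just outside it stood Htr2a, a serotonin receptor gene, with 1072 and 1062 inhibitory bases and 35 bases in 1 excitatory library. In all, 848 shared regions had H3K27me3 in both inhibitory and 1 excitatory library. Excitatory H3K27me3 was often near: the closest excitatory peak lay at a median of 6.61 kb in the first library and 5.07 kb in the second, and 243 regions (24.1%) had one within 1 kb. From 1 to 5 kb beyond the regions' edges, 6.10% and 7.66% of bases lay in excitatory H3K27me3 peaks and 19% and 17.5% in inhibitory ones. Over all shared regions the same ring held 5.98% and 7%, and 11.1% and 9.78%.

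**Figure D1:**
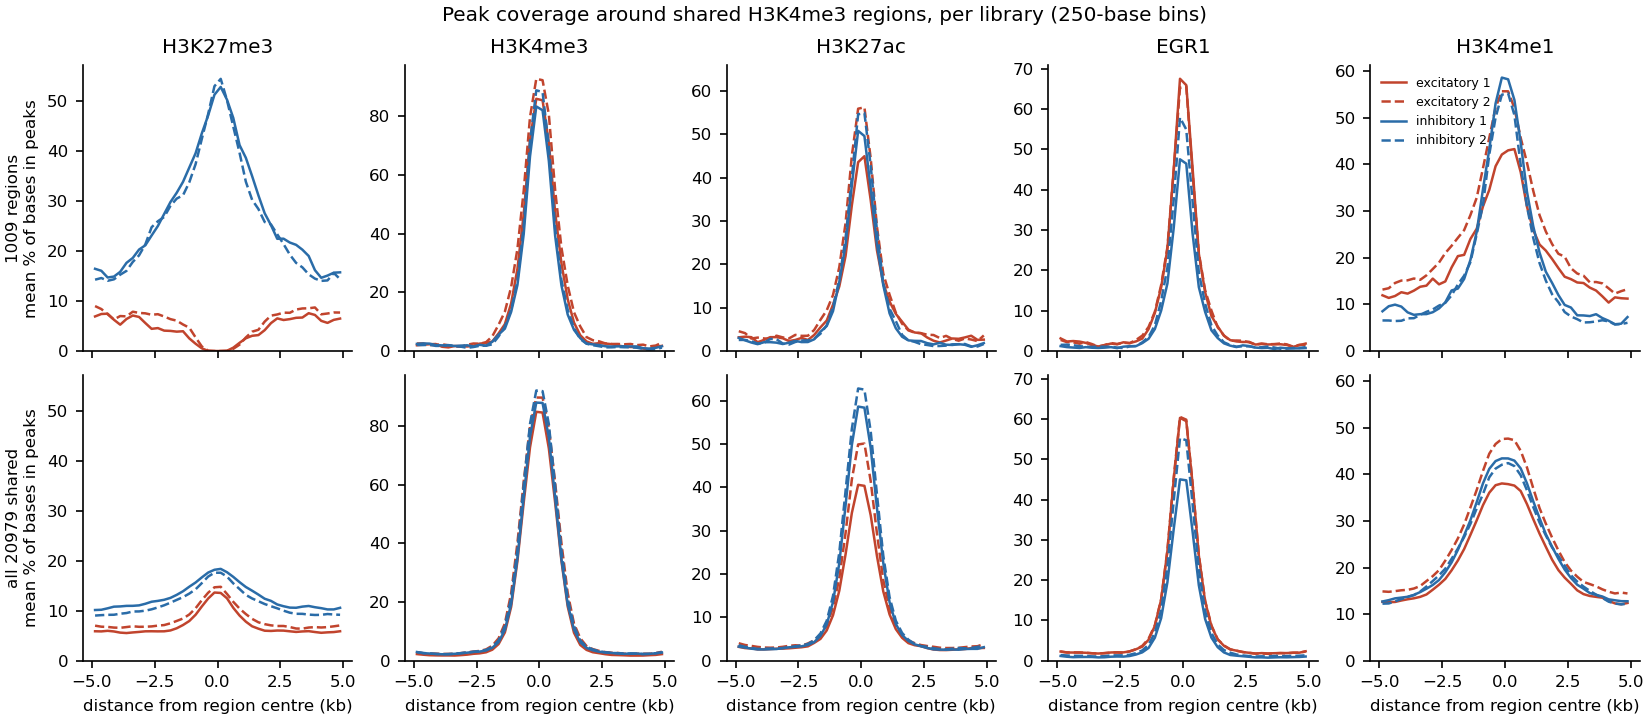
Mean percent of bases covered by peaks in 250-base bins (y axis) against distance from the region centre in kb (x axis), for the 1009 regions (top) and all 20979 shared regions (bottom). Red lines are the 2 excitatory and blue lines the 2 inhibitory libraries; H3K27me3 differs at the centre because the rule chose it, and H3K4me1 is higher on both flanks in the excitatory libraries over the 1009 regions.

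The regions at a gene with the most inhibitory H3K27me3 around them included Pdgfa, Ncan and Basp1. Around Pdgfa, a platelet-derived growth factor made by neurons, 53.3% and 48.2% of the region plus 5 kb on each side (chr5:138992942-138996467 before padding) lay in inhibitory H3K27me3 peaks and 2.18% in each excitatory library. Ncan, the brain proteoglycan neurocan (chr8:70118188-70121118), had 44.0% and 45.9% against 0 in both excitatory libraries. At Basp1, which encodes a membrane protein of growth cones (chr15:25411332-25413780), the values were 52.2% and 45.1% against 0 and 2.37%. Bend3, a DNA-binding repressor, had 54.2% and 41.9%, Klhl29 40.2% and 39.6%, and Nin, a centrosomal protein, 37.8% and 40.8%, each against 0 in both excitatory libraries. Pcdh7, a protocadherin adhesion gene, had 38.8% and 39.0% against 13.2% and 15.3%, so the excitatory peaks there stop short of the H3K4me3 region. Lrrn3, Zswim6 and Samd4 complete the 10 widest, with up to 18.7% in an excitatory library.

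**Figure D2:**
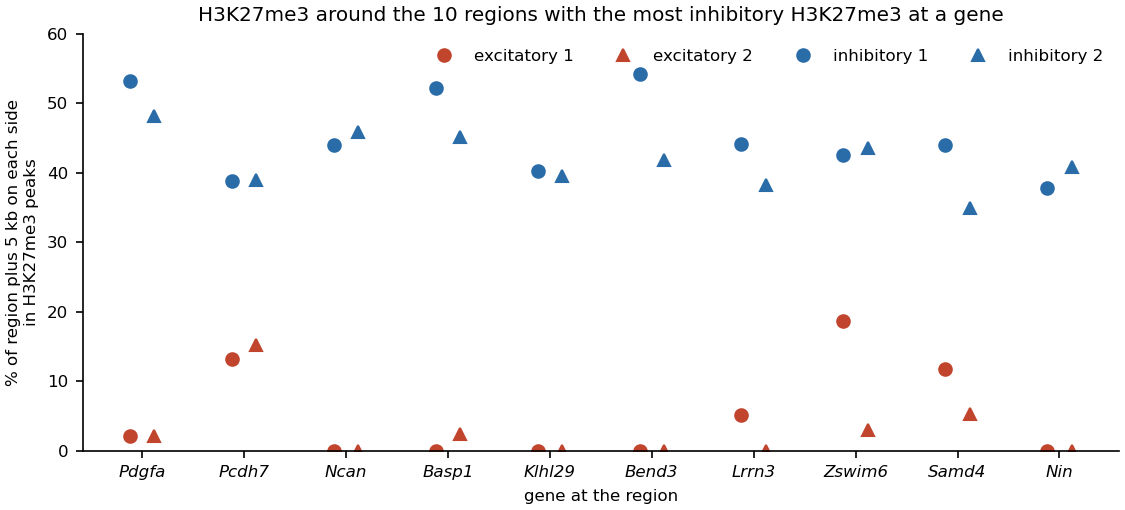
Percent of the region plus 5 kb on each side in H3K27me3 peaks (y axis) at the 10 genes with the most inhibitory H3K27me3 (x axis), one marker per library. Inhibitory libraries lie between 34.9% and 54.2%, and excitatory ones between 0 and 18.7%; the rule chose this contrast.

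H3K4me3 was shorter in the inhibitory libraries at many of these regions. Median bases under H3K4me3 peaks were 1143 and 1281 in excitatory libraries, against 1066 and 1114 in inhibitory ones. In 421 regions (41.7%) both excitatory libraries had more H3K4me3 bases than both inhibitory ones, against 22.0% of all shared regions, and in 126 (12.5%) the reverse held, against 25%. The 535 regions with excitatory H3K27me3 had the opposite order, with medians of 950 and 1191 excitatory and 1385 and 1426 inhibitory bases. Ncan had 2732 and 2483 excitatory against 1682 and 1540 inhibitory bases. Pcdh7 went the other way, with 1035 and 2375 against 4006 and 4275. Ranked by its lowest library, the broadest H3K4me3 lay at Nr3c2, the mineralocorticoid receptor, with 3501 and 3807 against 3813 and 3855 bases, where the excitatory and inhibitory values lay close together. Foxp1, a forkhead factor of striatal and cortical neurons (chr6:99520337-99523752), had 2950 and 2882 against 2953 and 3256 bases, with inhibitory H3K27me3 over 732 and 1097 of them.

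**Figure D3:**
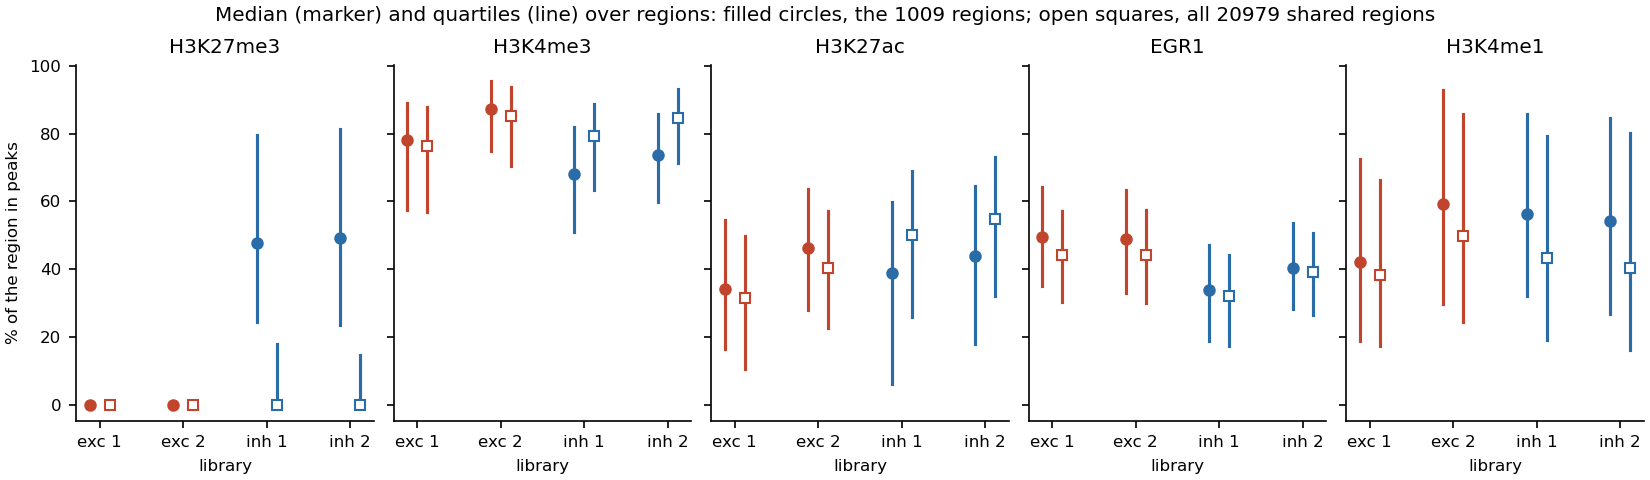
Percent of the region in peaks (y axis) for each library (x axis), as the median (marker) and quartiles (line) over the 1009 regions (filled circles) and all 20979 shared regions (open squares). Inhibitory H3K4me3 and H3K27ac medians of the 1009 regions lie below those of all shared regions, and excitatory ones above.

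Gene lists were counted against all genes with a shared H3K4me3 region. Of 13269 protein-coding genes with a shared H3K4me3 region, 528 (3.98%) had one of the class, 270 (2.03%) one with excitatory H3K27me3 alone and 1830 (13.8%) one with H3K27me3 in both types. None of 42 homeobox and paired factors, 27 basic helix-loop-helix factors, 21 genes of inhibitory neurons, 17 neuropeptides or 38 immediate early genes and their relatives had a region of the class, and 1 of 37 other developmental factors did, Foxp1. At a share of 3.98% over all genes, lists of this size would hold few such genes, so these low counts are not read as a trait of the class. The homeobox list had 22 genes marked in both types and 6 in excitatory nuclei alone, the inhibitory-neuron list had 13 and 4, and the neuropeptides 13 and 1. Of 71 genes of Wnt, BMP, Hedgehog and FGF signalling, 52 were marked in both types, while the class held 2, the growth factor gene Fgf17 and Axin2, a scaffold of the β-catenin destruction complex. Of 24 housekeeping genes, none had a region with H3K27me3 in both libraries of 1 type alone or in all 4, and 6 had one with another pattern of H3K27me3 peaks.

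Genes of the synapse and of excitability were present in small numbers. The class held 3 of 16 genes of GABA receptors and transport (18.8%): Gabra3 on the X chromosome, and Gabra4 and Gabrb1, whose starts share the region chr5:71656361-71658778. At that shared region 1843 and all 2418 bases lay under H3K27me3 in the inhibitory libraries, and neither excitatory library had any within 5 kb. It held 2 of 25 glutamate receptor genes, the AMPA subunit Gria3 and the kainate subunit Grik4, and 4 of 58 voltage-gated channels, the potassium channels Kcna4, Kcnq3 and Kcns2 and the sodium channel Scn3a. The axon guidance list had 6 of 58 (10.3%), among them the receptor Robo2, the ephrins Efna4 and Efnb1 and the semaphorin Sema4a. Of 26 monoamine and muscarinic receptors 21 were marked in both types and Htr5a, a serotonin receptor, in inhibitory nuclei alone. Among 26 genes of excitatory forebrain neurons only Lmo4 was in the class, and 10 were marked in both types. Synaptic adhesion gave Lrrtm1 and Ncam2 of 47, Polycomb and Trithorax genes gave Bmi1 and Phc1 of 40, both subunits of Polycomb complex 1, and pan-neuronal genes gave Nefm and Elavl4 of 21, the latter with a second region of the opposite pattern. Counts this small are descriptions and none was tested.

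**Figure D4:**
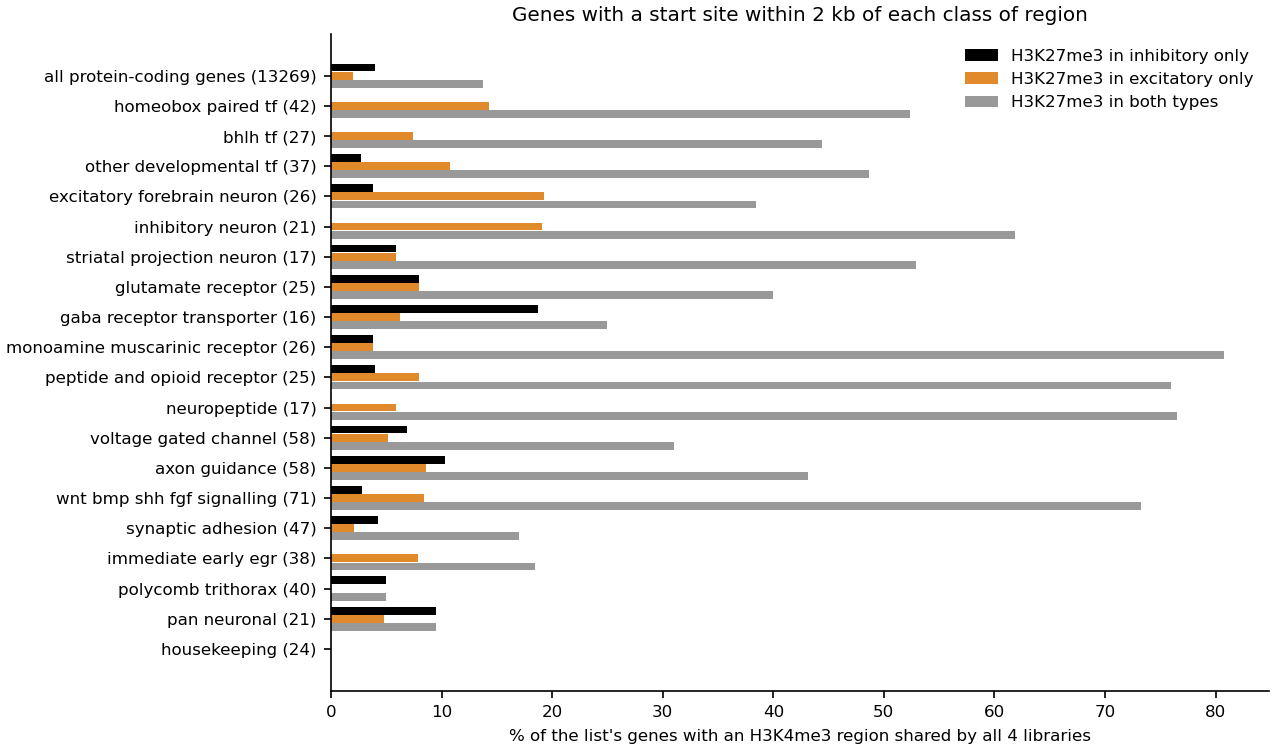
Percent of each list's genes with a shared H3K4me3 region (x axis) that had a region with H3K27me3 in inhibitory nuclei only (black), excitatory nuclei only (orange) or both types (grey), for lists (y axis, number of genes in brackets) of at least 15 such genes. Black bars are 0 for homeobox, basic helix-loop-helix, inhibitory-neuron, neuropeptide, immediate early and housekeeping genes and reach 18.8% for GABA receptor and transporter genes.

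The X chromosome held 40 of the 1009 regions (3.96%), against 2 of 535 (0.374%) with excitatory H3K27me3 alone, 35 of 2850 (1.23%) with both, 428 of 12251 (3.49%) without H3K27me3 and 568 (2.71%) of all shared regions. At a gene start lay 28 of the 40, including Gria3, Gabra3, the glycine receptor Glra2, doublecortin (Dcx), the dystrophin gene Dmd, the kinase gene Pak3 and the adhesion gene Pcdh19. The inhibitory H3K27me3 lists had 1.1% and 1.2% of their covered bases on X and the excitatory lists 0.626% and 0.765%, while H3K4me3 gave 1.87% and 1.97% in excitatory and 1.98% and 2.51% in inhibitory lists. The part of this chromosome-wide difference in H3K27me3 in the choice of those 40 regions was not tested.

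For H3K27ac, no region of the class differed between the types at an adjusted p below 0.05, and the differences that lay at a lower unadjusted p mostly pointed to the excitatory libraries. A peak of H3K27ac was present in 80.3% and 90.7% of the regions in the excitatory libraries and 75.2% and 77.8% in the inhibitory ones, against 77.0%, 86.8%, 82.8% and 85.7% of all shared regions. Coverage of the region plus 1 kb on each side, quantile-normalized over the 4 libraries, was tested with limma in all shared regions where at least 2 libraries had a covered base. Of the 1009, 953 were tested and 0 passed, as did 0 of 19711 (0.0%), with a smallest Benjamini-Hochberg adjusted p of 0.164. Covered in 1 type only were 91 of the 953, against 1088 of the 19711. Such windows passed the filter only through the type where they are high, and their part in the next counts was not tested. At an unadjusted p below 0.05, 208 regions had more in excitatory nuclei (21.8%, against 7.97% of all tested) and 23 had more in inhibitory nuclei (2.41%, against 6.87%). The counts were 133 and 65 without quantile normalization, with no share over all tested regions to set beside them. Without the first and second excitatory library the tested members had a median difference of 7.91 and 7.15 points, against 0.156 and 0.153 over all. Without the first and second inhibitory library it was 7.57 and 7.18 points, against −0.173 and −0.132. Before normalization both excitatory libraries lay above both inhibitory ones in 272 regions (28.5%, against 11.1%), and the reverse held in 217 (22.8%, against 42.2%). Over all 1009 regions, untested ones included, the median difference was 6.97 points of the window in favour of excitatory nuclei, against 0.105 points over all shared regions, and 708 regions (70.2%) were positive, against 50.4%.

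Regions with H3K27me3 in both types had a median H3K27ac difference of 5.44 points, those without it −1.98 points and those with it in excitatory nuclei alone −7.16 points. An excess of excitatory H3K27ac was therefore not particular to the class. Without quantile normalization the median was 0.71 points in the class and −7.41 points over all shared regions. The 2 excitatory H3K27ac lists are weaker (2.57% and 4.94% of peaks with q below 0.05) than the inhibitory ones (31.8% and 35.1%). In the inhibitory libraries all 6 markers of inhibitory neurons, Gad1 and Gad2 among them, had no H3K27ac peak within 2 kb of their start. Their mean coverage in the excitatory libraries was 4.58% and 2.81%. The part of either in the result was not tested.

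**Figure D5:**
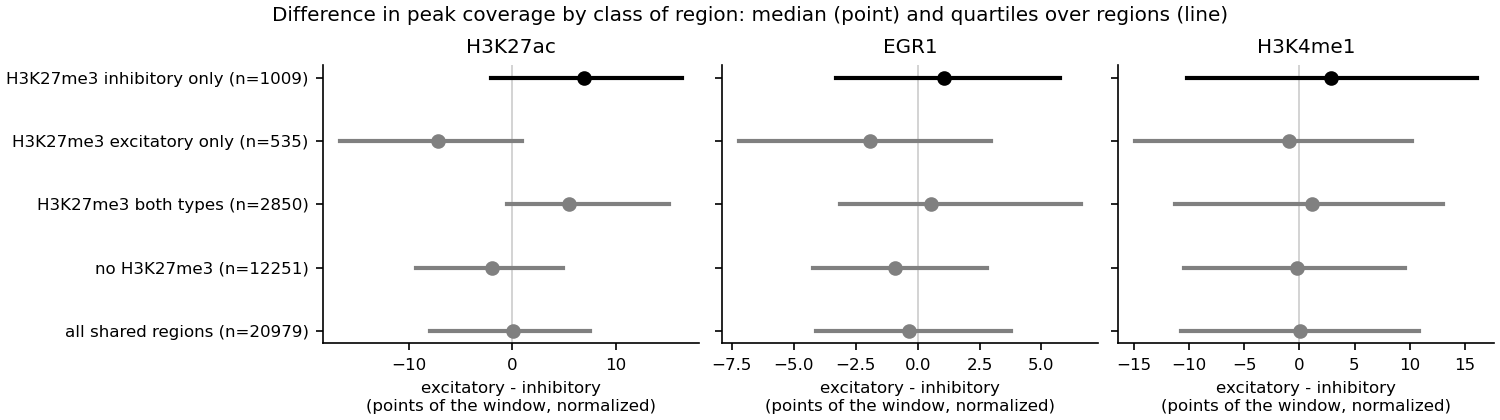
Difference in window coverage, excitatory minus inhibitory, in percentage points after quantile normalization (x axis), as median (point) and quartiles (line) over the regions of each class (y axis). The median of the 1009 regions is 6.97 points for H3K27ac, 1.06 for EGR1 and 2.88 for H3K4me1.

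At Scn3a, a sodium channel gene prominent in the developing brain (chr2:65564465-65567507), H3K27ac covered 43.8% and 37.6% of the window in excitatory and 5.79% and 0% in inhibitory libraries. The groups did not overlap, and the normalized difference was 42.1 ± 8.08 points (SE, limma adjusted p = 0.164). Crtap, a collagen prolyl-hydroxylation protein (chr9:114389728-114391045), had 32.6% and 38.3% against 0 in both inhibitory libraries. Mfsd9, the malic enzyme gene Me1 and the adaptor gene Grb14 followed with differences of 39.0, 39.6 and 35.1 points. Among the listed genes, Kcna4 had 23.6% and 43.9% against 0 and 0, Robo2 22.2% and 32.8% against 0 and 0, and Gria3 19.1% and 29.4% against 0 and 0. Gabra3 had 12.1% and 28.0% against 0 and 0. These 4 had a peak in both excitatory libraries and in no inhibitory one, and none passed the adjusted threshold. Like Crtap, they entered the test only through the libraries where they are high.

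Other regions carried more H3K27ac in inhibitory nuclei beside their H3K27me3. The window at Dyrk2, a protein kinase gene (chr10:118869331-118870144), had 15.1% and 19.8% in excitatory against 42.6% and 60.7% in inhibitory ones, which differed by −25.9 ± 7.77 points (limma adjusted p = 0.204). Near Lmo4 (chr3:144202823-144203639) the values were 0 and 0 against 35.5% and 21.7%. This is the region just inside the rule, with H3K27me3 over 1 and 817 inhibitory bases. Its window entered the H3K27ac test only through the inhibitory libraries. Lrrtm1, a postsynaptic adhesion gene, had 6.53% and 0% against 27.7% and 21.4%. The shared start of Gabra4 and Gabrb1, named from a gene list, hardly differed. There 17.8% and 38.0% stood against 39.7% and 38.4%, and the second excitatory value lay just below both inhibitory ones. The normalized difference was −2.12 ± 7.94 points (SE, limma adjusted p = 0.936).

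EGR1 peaks lay in 93.0% and 92.3% of the regions in excitatory and 83.4% and 89.2% in inhibitory libraries, near the 88.8%, 89.0%, 81.0% and 87.5% of all shared regions. Of 966 regions tested, 1 passed the adjusted threshold, against 3 of 19565 (0.0153%), all with more in excitatory nuclei. The window lay within the gene Smurf1, a ubiquitin ligase of BMP signalling (chr5:144913550-144914886), and is named because it alone passed. Its EGR1 coverage was 50.6% and 49.2% in excitatory and 0 in both inhibitory ones, a normalized difference of 43.5 ± 3.58 points (SE, limma adjusted p = 0.0376). It is 1 of 36 tested windows of the class that were covered in 1 type only, and it passed the filter on covered libraries only through the excitatory ones, so the p-value gives no support. The call was lost in the alternative settings that the closing section names. H3K27me3 covered all 1337 bases of that region in 1 inhibitory library and 755 in the other. At an unadjusted p below 0.05, 119 regions had more EGR1 in excitatory (12.3%, against 8.4%) and 42 in inhibitory nuclei (4.35%, against 5.88%). These counts depend on the scaling: they were 227 and 9 without quantile normalization, and turned to 34 and 136 when all union regions were normalized together. No share over all tested regions stands beside these. The median difference of tested members was 5.77 points without normalization, against 3.95 over all, and −4.33 with all union regions, against −1.42. Without the first and second excitatory library it was 0.545 and 1.03 points, against −0.62 and −0.667. Unnormalized coverage was higher in both excitatory libraries in 498 regions (51.6%, against 44.3%) and in both inhibitory ones in 52 (5.38%, against 7.08%), where the excitatory lists cover 48.8 and 50.2 Mb and the inhibitory ones 22.6 and 29.7 Mb. The median difference over all 1009 regions was 1.06 points, against −0.34 points over all shared regions. In the main fit, 339 of 2306 tested regions with H3K27me3 in both types (14.7%) had more excitatory EGR1 at an unadjusted p below 0.05. More inhibitory EGR1 was found in 177 of them (7.68%). An excess of excitatory EGR1 was therefore not particular to the class.

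The first-ranked gene for excitatory EGR1 was Scd4, a stearoyl-CoA desaturase gene with the CpG-poor start printed above (chr19:44332488-44333421). EGR1 covered 52.3% and 57.9% of its window in excitatory and 24.2% and 19.2% in inhibitory ones, which gave a difference of 27.1 ± 4.37 points (SE, limma adjusted p = 0.0869). Slc9a9, a sodium-proton exchanger of endosomes, had 37.5% and 38.6% against 10.8% and 18.1%. On the X chromosome, Aff2 had 35.8% and 36.1% against 13.0% and 15.3%, and the palmitoyltransferase gene Zdhhc15 had 28.5% and 25.3% against 0 and 7.19%. In the other direction Ccdc30, the gene with the fewest G and C bases of those printed, had 0 and 10.1% against 17.9% and 22.1%. Pygo1, a Wnt co-activator, had 12.9% and 14.7% against 23.6% and 25.4%, and Phactr1, a regulator of actin and phosphatase 1, had 13.2% and 15.9% against 24.3% and 24.0%. In each of these genes the types did not overlap, and none passed the adjusted threshold. The labelled types were set against marker genes, and the antibodies did not give 1 answer. Mean EGR1 coverage at 6 excitatory markers was 21.7% and 15.5% in excitatory and 4.16% and 5.33% in inhibitory libraries, and at 6 inhibitory markers it was 1.92% and 0% against 7% and 11.6%. At the same excitatory markers H3K4me3 covered 16.6% and 29.3% against 26.9% and 26.9%, and H3K4me1 19.1% and 33.7% against 30.1% and 38.2%. The types overlapped there and neither mark was higher in both excitatory libraries. Averaged over the 6 inhibitory markers, both marks were higher in both inhibitory libraries. Mean H3K4me3 coverage was 10.8% and 21.8% against 25.1% and 27.3%, and mean H3K4me1 coverage 22.9% and 32.7% against 45.2% and 50.4%. Gene by gene this did not hold throughout. The types overlapped at Gad1 and Slc32a1 for both marks, at Dlx1 for H3K4me3 and at Lhx6 for H3K4me1. H3K27me3 covered 26.1% and 29.8% against 35.4% and 44.5% at the excitatory markers, and the types overlapped at the inhibitory ones.

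H3K4me1 differed with the distance from the region. It was present in 86.2% and 92.5% of regions in excitatory and 91.0% and 85.7% in inhibitory libraries, near the 87.0%, 91.1%, 87.9% and 85.3% of all shared regions. Within the regions 39.5% and 51.3% of bases lay in excitatory and 52.7% and 50.5% in inhibitory H3K4me1 peaks. In the ring from the edge to 1 kb the values were 26.9% and 33.0% against 22.2% and 20.3%, and from 1 to 5 kb 13.0% and 15% against 8.06% and 6.82%. The types did not overlap in either ring. Over all shared regions the outer ring held 13.6% and 15.9% against 14.1% and 14.0%, where they overlapped. Both rings also held more inhibitory than excitatory H3K27me3 in the class, with 36.5% and 33.7% against 2.77% and 3.88% up to 1 kb, and the part of either mark in the other was not tested.

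Region by region, no member of 987 tested for H3K4me1 in the window of 1 kb passed the adjusted threshold, nor did any of 20657 (0.0%), with a smallest limma adjusted p of 0.183. At an unadjusted p below 0.05, 116 had more in excitatory (11.8%, against 6.59%) and 73 in inhibitory nuclei (7.40%, against 6.33%). With 5 kb on each side, 11 regions of the class passed, all with more in excitatory nuclei, as did 59 of all regions in that direction (0.283%). The unadjusted counts were then 208 (20.7%, against 7.89%) and 15 (1.5%, against 6.77%). Within the region itself they were 54 (5.58%, against 6.07%) and 95 (9.82%, against 6.29%), and the median turned to −3.09 points. The direction therefore changed with the window, but it also changed where the window of 1 kb was kept. There the median was −1.21 points with all union regions normalized together, against −0.8625 over all regions in the fit. Keeping only H3K4me1 peaks above the stricter threshold of the closing section gave −0.0348 points, against 0.9479.

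Rsph1, a gene of the ciliary radial spoke (chr17:31276428-31277727), had H3K4me1 over 49.6% and 62.9% of its window in excitatory libraries and none in either inhibitory library, a difference of 56.7 ± 10.5 points (SE, limma adjusted p = 0.183). It is 1 of 24 tested windows of the class that were covered in 1 type only, and it entered the test only through the libraries where it is high. Fam169a had 46.2% and 55.9% against 6.28% and 8.79%, and the lysophosphatidic acid receptor gene Lpar2 59.3% and 69.2% against 18.7% and 21.3%. The adaptor gene Sh2b2 had more H3K4me1 in excitatory nuclei (53.4% and 66.8% against 21.2% and 6.51%) and more EGR1 in inhibitory ones (20.5% and 19.3% against 26.0% and 27.9%). In the inhibitory direction, Basp1 had 2 regions of the class. The one at its start had 0 and 23.1% against 57.8% and 67.9%, and its neighbour (chr15:25414287-25414912) 0 and 0 against 41.3% and 61.0%. The neighbour entered the test only through the inhibitory libraries. With 5 kb on each side the Basp1 differences turned positive, 5.41 and 2.56 points. Myc, the proto-oncogene, had 10.7% and 48.3% against 78.4% and 100%, Adgra1, an adhesion receptor gene, 11.2% and 5.19% against 56.4% and 56.6%, and Mid1 on X 27.9% and 30.3% against 76.8% and 71.6%.

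Markers of other cell types were checked within 2 kb of their gene starts. Mean H3K4me3 coverage at 4 markers of cerebellar granule cells was 13.1% and 15.6% in excitatory and 35.2% and 33.1% in inhibitory libraries. Gabra6 (0% and 11.8% against 55.2% and 52.6%) and Barhl1 (6.11% and 6.99% against 34.7% and 38.3%) carried the difference, while the types overlapped at Cbln3 and Fat2 was at 0 in all 4 libraries. H3K27me3 at the same genes was 11.1% and 19.8% against 4% and 6.20%. Microglial H3K4me3 was 1.16% and 2.04% against 2.23% and 0%. Among 9 astrocyte genes with a shared region none was in the class, while Cnp was the 1 of 6 oligodendrocyte genes and Col1a1 the 1 of 6 vascular genes. The excitatory marker Slc17a7 had no region of the class, Gad2 had H3K27me3 in all 4 libraries (1196 and 1744 excitatory, 2036 and 1037 inhibitory bases), Gad1 had no shared H3K4me3 region, and Egr1 had no H3K27me3 peak over its shared regions in any library. The part of the granule-cell difference in the 1009 regions was not tested, and a share of cells with a mark cannot be told apart from a level per cell.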

How the data were processed

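CUT&RUN peak lists of 20 libraries were used, 2 for each of 5 antibodies and 2 neuron types. Per the submitters' processing notes the tools were MACS2 2.2.5, Bowtie2 2.3.5, Trim Galore 0.5.0, SAMtools 1.12, cutadapt 1.18 and Picard 2.25.0, with mm10. Each library was called alone, per the labels. The sources used here do not name a control or the call settings. In the deposited lists each peak has a fold enrichment (a ratio) and −log10 p and q values, as MACS2 writes them. Read counts are absent from these lists, which leaves the depth behind a peak unknown, and presence of a peak rests on each library's threshold. In the EGR1 lists the peaks are numbered 3 and 4, although the labels number these libraries 1 and 2.

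From the lists, the percent of each window (region plus 1 kb on each side) covered by peaks was computed in Python 3.11.15, quantile-normalized and tested with limma 3.58.1 (R 4.3.3, trended variance, two-sided) over all shared H3K4me3 regions with a covered base in at least 2 libraries. P-values were Benjamini-Hochberg adjusted over all of them, with a threshold of 0.05. The fitting was tested on simulated data. Gene starts came from RefSeq (GRCm38.p6): 17273 of 21627 protein-coding genes had one, and both ends were used for the other 4354. Named genes were those first by adjusted or, with fewer than 5 passing, unadjusted p in each direction and antibody, those with the most H3K27me3 or H3K4me3, and up to 4 of each gene list. The Smurf1 region, the threshold examples and the X chromosome genes were chosen after their values were seen. The regions and gene lists were chosen with earlier results of these data known. Alternatives were other windows, peak thresholds, scalings and filters, each library left out, and a replicate block.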

Additional observations from a re-analysis of the deposited data

How the results depend on the processing

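Depth is unknown and 2 libraries per type limit precision. The count of 1009 regions fell to 520 with H3K27me3 peaks at −log10 p of at least 2. It was 924 with an overlap of at least 200 bases, 797 with H3K4me3 peaks of −log10 p of at least 3, 875 when every library gave equally many of its strongest peaks, and 766 with no excitatory peak within 1 kb. Leaving out 1 library, which loosens the rule, gave 1299 to 2074 (1567 without the second excitatory, 1845 and 2074 without the first and the second inhibitory library).

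For H3K4me1, 0 regions passed in the window of 1 kb and 11 with 5 kb. The replicate block gave 25, with no share over all shared regions to set beside it. Of these, 16 had more in excitatory and 9 more in inhibitory nuclei. With 1 library left out, the median difference of tested members lay between 1.69 and 3.52 points. The median difference reversed to −3.09 in the region itself, −0.0348 at −log10 p of 3 or more and −1.21 over all union regions, and the Basp1 values to 2.56 and 5.41 with 5 kb. For H3K27ac, 0 became 4 under the replicate block and 6 to 47 without 1 library (47 and 21 without the first and the second excitatory, 6 without either inhibitory one), where the lone library is assumed to vary like the others and fewer samples enter the fit. These H3K27ac counts have no share over all shared regions beside them, so they cannot tell the class apart from a general rise in calls. For EGR1, 1 became 0 without quantile normalization, in the region itself, with 5 kb and with the same number of peaks. The EGR1 count was also 0 without the coverage filter, on the log2 scale and over all union regions. Without either excitatory library the Smurf1 window had 1 covered library and was removed by the filter, so it was not tested. The count was 3 under the block, without a share over all shared regions, and the median became −4.33 over all union regions. The cause of these changes was not tested. Replicate numbers share only a number: the deviations of same-numbered libraries correlated by 0.0268 for H3K4me1, 0.0203 for H3K27ac and 0.00514 for EGR1 across windows. Of 368 alternative values at 30 named results, 2 reversed direction. These 30 were picked by unadjusted p in each direction from the same libraries, and none passed in the main fit. A kept direction was therefore likely beforehand, and the tally gives no support. Settings in which the filter removed a window are not among the 368.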
